A study of Mus musculus with 21 samples.

Results

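The neurogenesis and proliferation genes are a list of 39 genes of the dentate gyrus, followed here as stem cell and Notch genes, intermediate progenitor genes, immature neuron genes, the D-type cyclins with *Cdkn1b*, DNA replication genes, and genes of S to M phase and mitosis. They were taken by symbol, with no cutoff on a measured value, though earlier results of these data were known when the list was chosen. Of the 39, 38 had a probe set among the 18193 genes named on the array, and 32 of those passed a filter on low values that left 12499 genes for testing. *Igfbpl1*, *Tyms*, *Cdk1*, *Birc5*, *Bub1* and *Aurkb*, 6 genes in all, lay under the filter, and the level of *Ccnb1* is not analysed here.

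Total RNA from mouse dentate gyrus was hybridised to 21 Affymetrix arrays in 7 groups of 3. The mice carried a pTRE/NgR transgene for the Nogo receptor (gene *Rtn4r*), which the transactivator tTA turns on and doxycycline holds off. In set 1, bitransgenic mice (tTA and NgR) whose doxycycline was taken away were set beside bitransgenic mice still fed it, here called the diet group, and beside monotransgenic mice, which have NgR but no tTA and whose doxycycline was also withdrawn in favour of water. Experiment 2 had bitransgenic mice that never received doxycycline and monotransgenic mice, all on water, and set 3 had bitransgenic and monotransgenic mice with no treatment in the labels. The labels give no age, no strain and no promoter for tTA, and they do not state whether each sample is 1 animal, so a p-value here measures only the spread between these samples. The 3 arrays of a group are named 1, 2 and 3 in the order of deposit, which pairs nothing.

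The dentate gyrus keeps making granule neurons after birth. Radial glia-like stem cells of the subgranular zone, held in reserve in part by Notch signalling, give rise to dividing intermediate progenitors, and these become immature neurons that switch on doublecortin before they mature. Dividing cells are known to be rare in the adult tissue. In bulk RNA, fewer cells of a type cannot be told apart from less RNA per cell.

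Cell cycle genes are commonly described as 2 waves: replication genes that E2F factors switch on near the entry to S phase, and mitotic genes switched on later through a CHR element, often beside a CCAAT box. Promoter windows of 300 bases, 250 before and 50 after a start, were found in RefSeq (GRCm38.p6) for 31 of the 39 genes, 36 windows in all. The E2F letters searched on both strands were TTTGGCGC, TTTCCCGC, TTTCGCGC and TTTGCCGC, and 4 of 9 replication windows held one (44.4%), against 2.26% of all 32851 windows. For CHR the letters were TTTGAA and TTTAAA, held by 9 of 10 windows of the S to M phase genes (90%) and by 27.6% of all windows. CCAAT was in 8 of 9 replication windows and 9 of 10 S to M phase windows, against 37.4% of all. The site of *Rbpj*, the factor through which Notch acts, was searched as CGTGGGAA or TGTGGGAA and matched 1 of 8 stem cell and Notch windows, that of *Hes5*, and 2 of 10 S to M phase windows, both of *Prc1*, against 2.57% of all. The 2 *Prc1* windows overlap and hold the same CHR, CCAAT and *Rbpj* matches, so each of these shares of the 10 windows counts them more than once. A match describes letters and shows no binding.

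The 200 bases before the start of 4 genes are printed because *Mcm6* and *Mcm7* had the lowest p of the replication genes over the 3 sets, and *Mki67* and *Top2a* are the best known mitotic markers of the list. All 4 genes lie on the minus strand, and each sequence reads along the gene. The stretches are chr1:128359706-128359905 for *Mcm6*, chr5:138171884-138172083 for the first of the *Mcm7* starts, chr7:135716380-135716579 for *Mki67* and chr11:99024190-99024389 for *Top2a*, and capitals mark E2F matches in the Mcm genes and CHR matches in the others, with a match on the opposite strand shown as its reverse complement.
*Mcm6*: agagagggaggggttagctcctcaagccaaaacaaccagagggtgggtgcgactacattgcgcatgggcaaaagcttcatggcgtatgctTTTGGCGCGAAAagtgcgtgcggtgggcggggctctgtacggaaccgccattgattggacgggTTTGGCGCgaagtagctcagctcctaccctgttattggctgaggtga
*Mcm7*: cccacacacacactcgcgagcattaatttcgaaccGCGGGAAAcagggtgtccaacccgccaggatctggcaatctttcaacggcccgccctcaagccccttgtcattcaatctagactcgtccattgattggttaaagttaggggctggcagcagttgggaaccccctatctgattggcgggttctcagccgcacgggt
*Mki67*: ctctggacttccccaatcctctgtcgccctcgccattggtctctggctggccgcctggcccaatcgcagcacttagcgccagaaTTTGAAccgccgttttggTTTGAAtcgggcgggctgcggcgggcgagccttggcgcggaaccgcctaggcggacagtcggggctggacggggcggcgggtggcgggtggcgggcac
*Top2a*: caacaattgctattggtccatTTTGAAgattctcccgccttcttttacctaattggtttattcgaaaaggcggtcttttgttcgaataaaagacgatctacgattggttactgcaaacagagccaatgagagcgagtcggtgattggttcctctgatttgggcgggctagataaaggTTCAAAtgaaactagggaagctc
*Mcm6* held 3 E2F matches, of which 2 overlap on opposite strands at 110 and 106 bases before the start, and the third stood 47 bases before it. In *Mcm7* the window held 2, one 165 bases before the start and shown, the other after the start and not shown. *Mki67* had CHR matches 116 and 98 bases before its start, and *Top2a* 179 and 23 bases before.

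The transgene itself read as labelled. *Rtn4r* was 1469, 329 and 254 after doxycycline removal, against 73.1 to 111 on the diet and 63.8 to 98.4 in set 1 monotransgenic mice, and it was 365 to 755 in the other 6 bitransgenic samples, against 85.9 to 185 in their 6 monotransgenic counterparts. All intensities are the deposited linear values, scaled so that the mean of an array without its lowest and highest 2% is 150. *Xist* read 2361 to 4750 on the 6 arrays of experiment 2 and 9.59 to 33.7 on the other 15, so sex differs between the sets and not within them. Experiment 2 was the noisiest, with 53.3% of the residual variance of all genes and median gene SDs of 0.30 and 0.28 log2 units in its 2 groups, against 0.14 to 0.16 in the other 5. Monotransgenic arrays were uneven in 2 groups. In set 3, array 2 read 135 for the granule cell gene *C1ql2* and 41.2 for the meningeal gene *Ogn*, where arrays 1 and 3 read 886 and 1132 for *C1ql2* and 824 and 652 for *Ogn*. In experiment 2, array 3 read 1234 for *C1ql2* and 526 for *Ogn*, where arrays 1 and 2 read 136 and 442 for *C1ql2* and 153 and 79.6 for *Ogn*. The *Rtn4r* of both lay within the monotransgenic range. *Prox1*, which defines granule cells, was present on all arrays at 318 to 951.

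Mean levels of the list ran from 4.41 to 10.26 on the normalized log2 scale. The dot plot of group means by role gives each gene's level on a log2 scale. *Pcna*, *Neurod1*, *Hopx* and *Mcm6* gave the highest intensities, and the S to M phase genes gave low ones, with *Ccna2* at 27.3 to 89.0 over the 21 arrays. Levels of different genes depend on their probes, so these are readings and no ranking of the genes.

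**Figure D1:**
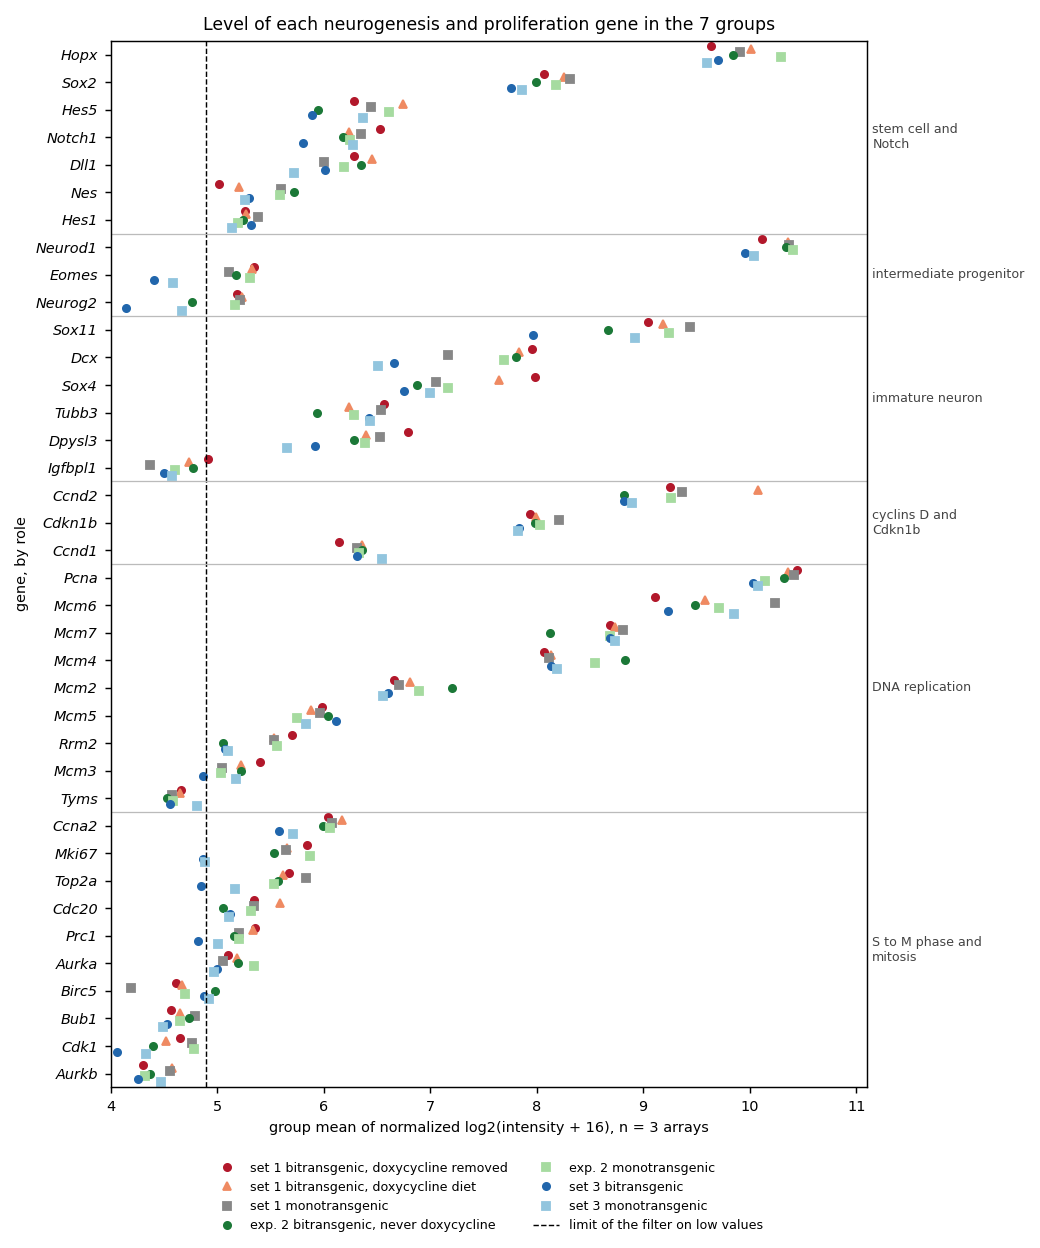
Mean of normalized log2(intensity + 16) over the 3 arrays of each group (horizontal axis, log2 units) for the 38 genes with a probe set, ordered by role; symbols and colours mark the 7 groups and the dashed line the filter at 4.90. The S to M phase genes lie near or under the filter, and the blue set 3 symbols sit at the low end of Eomes, Neurog2, Dcx, Dpysl3, Mki67 and Top2a.

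No gene of the list passed the test in any comparison. Differences are limma estimates on log2(intensity + 16) after quantile normalization, with standard errors, and the threshold was a Benjamini-Hochberg adjusted p of 0.05 over all 12499 genes. Between doxycycline removal and the diet, 0 of 32 passed (0.032% of all genes tested did) and 2 were under an unadjusted p of 0.05 (5.04% of all genes), both lower after removal. For removal against monotransgenic mice, 0 passed (0.072% of all genes) and 4 were under the unadjusted threshold (7.86%), with 2 higher and 2 lower. For the diet against monotransgenic mice, 0 passed (0.024%) and 5 were under the unadjusted threshold (3.85%), 4 higher and 1 lower. These 3 comparisons share arrays. In experiment 2, 0 passed (0.096%) and 2 were under the unadjusted threshold (14.4%), both lower in bitransgenic mice, and in set 3, 0 passed (0% of all genes) and 2 were under it (4.19%), again both lower. In the mean of the 3 within-set differences between mice with the transgene on and monotransgenic mice, 0 passed (0.072%) and 5 were under the unadjusted threshold (11.8%). The 3 differences between those within-set differences had 0 of 32 passing and 0% of all genes, with 3 under an unadjusted p of 0.05 for experiment 2 less set 1 (7.91% of all genes), 3 for set 3 less set 1 (3.5%) and 1 for set 3 less experiment 2 (8.09%).

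Over the 3 sets, 10 genes of the list were higher and 22 lower with the transgene on, with a median difference of -0.10, where 6451 of all genes were higher and 6048 lower, with a median of 0.01. All 3 intermediate progenitor genes, all 3 genes of the cyclin D and *Cdkn1b* group and all 6 S to M phase genes were lower (medians -0.14, -0.12 and -0.06), 5 of 7 stem cell and Notch genes were lower (median -0.14), and 3 of 5 immature neuron genes and 5 of 8 replication genes were higher (medians 0.13 and 0.05). Most of the 32 differences are smaller than their standard errors. Of the 32, 3 were higher in each of the 3 sets and 9 lower in each, while among all genes 2083 were higher and 1625 lower in each.

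**Figure D2:**
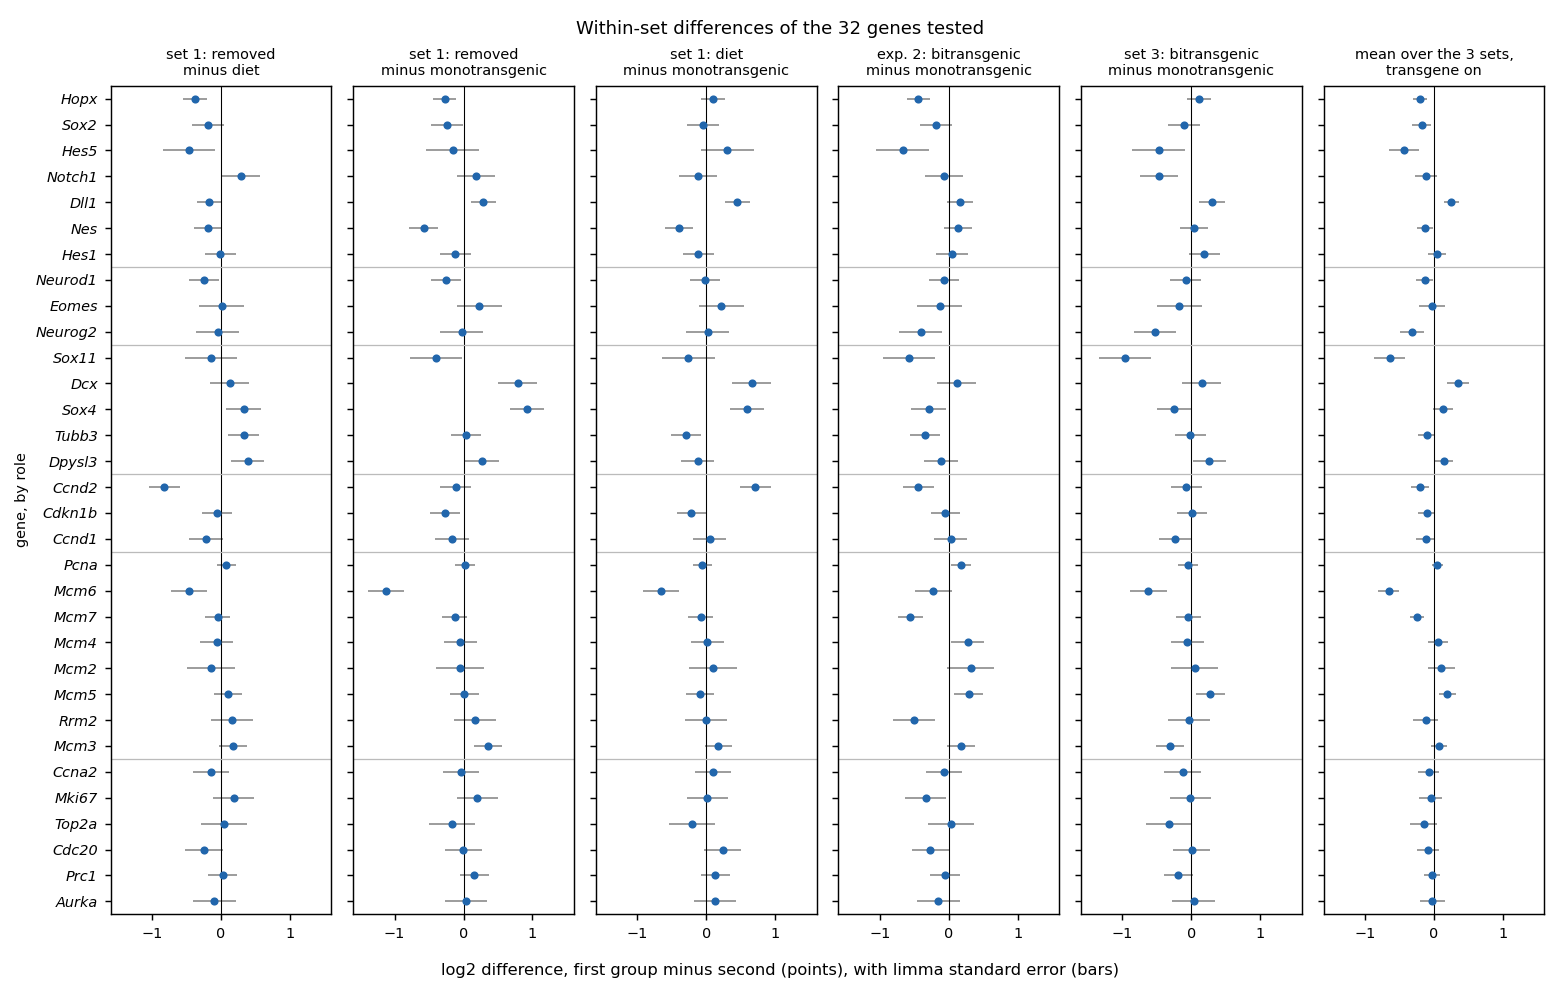
Log2 difference (horizontal axis, first group minus second) with its limma standard error for the 32 genes tested, in 6 comparisons; genes are ordered by role and then by level. Mcm6 lies left of 0 in every panel, Ccnd2 lies left of 0 for removal minus diet and right of 0 for diet minus monotransgenic, and Sox4 and Dcx lie right of 0 in the set 1 comparisons with monotransgenic mice.

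*Mcm6* came nearest to the threshold. It codes for a subunit of the MCM2-7 helicase, the ring that unwinds DNA at replication origins. Its intensity was 429.7, 637 and 563 in the removal group and 856, 792 and 617 in the diet group, against 1196, 1181 and 1187 in set 1 monotransgenic mice. All 3 removal arrays and all 3 diet arrays lay below all 3 monotransgenic arrays, which were within 16 units of each other. In experiment 2 it was 682, 724 and 726 in bitransgenic mice, against 766, 535 and 1244 in monotransgenic mice, and in set 3 588, 673 and 536 in bitransgenic mice, against 991, 571 and 1300 in monotransgenic mice. In both of these sets the bitransgenic arrays were close together and the monotransgenic arrays ran from below to far above them, so the groups overlapped.

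The log2 difference of *Mcm6* was -1.13 ± 0.26 for removal against monotransgenic mice, a level 2.18-fold lower (adjusted p = 0.119), -0.47 ± 0.26 for removal against the diet (adjusted p = 0.9994) and -0.66 ± 0.26 for the diet against monotransgenic mice (adjusted p = 0.9997). In experiment 2 it was -0.22 ± 0.26 (adjusted p = 0.708) and in set 3 -0.62 ± 0.26 (adjusted p = 0.9998). The mean over the 3 sets was -0.66 ± 0.15 (adjusted p = 0.0739), and the exact permutation p of that mean alone, two-sided over 8000 relabelings of arrays within sets, was 0.0075. Its 2 probe sets kept gave the same direction in each of these comparisons, at -0.66 and -0.64 over the 3 sets, and the other set gave -0.26 for removal against the diet and -0.53 in experiment 2. The brighter one, used throughout, is of a kind whose probes may also bind other transcripts. The mean over the 3 sets passed without set 3 monotransgenic array 2 (-0.77, adjusted p = 0.00270) and without either of monotransgenic arrays 1 and 2 of experiment 2 (adjusted p = 0.0404 and 0.0227), and it was -0.55 without array 3 of that group (adjusted p = 0.1545).

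Monotransgenic arrays high in *Mcm6* were high in 2 genes of other cells as well. The 6 arrays of highest *Mcm6*, at 991 to 1300, were the 3 set 1 monotransgenic arrays, array 3 of the experiment 2 monotransgenic group and arrays 1 and 3 of the set 3 monotransgenic group. The same 6 arrays were the 6 highest for *Ogn*, at 526 to 824, and the 6 highest for *C1ql2*, at 886 to 1234. The other 15 arrays read 429.7 to 856 for *Mcm6*, 8.54 to 153 for *Ogn* and 134.8 to 784 for *C1ql2*. *Ogn* codes for osteoglycin, a matrix proteoglycan of the meninges. The 5 meningeal markers summed to 63.9 to 82.1 after removal, 70.0 to 85.8 on the diet and 705 to 875 in set 1 monotransgenic mice, and of the 5, *Igf2* and *Slc6a13* lay under the filter. In experiment 2 that sum was 105 to 131 in bitransgenic and 159 to 585 in monotransgenic mice, and in set 3 it was 68.2 to 212 in bitransgenic and 81.4 to 969 in monotransgenic mice. *Ogn* alone read 556, 728 and 636 on the set 1 monotransgenic arrays and made up most of their sum. For removal against monotransgenic mice, *Lum* differed by -1.48 ± 0.28 (adjusted p = 0.0468) and *Dcn* by -0.19 ± 0.26 (adjusted p = 0.946). In experiment 2, monotransgenic array 3 read 32.7 for *Lum*, where arrays 1 and 2 read 30.2 and 26.4. The 8 granule cell markers summed to 13460 to 16820 after removal, 14810 to 16450 on the diet and 18000 to 21200 in set 1 monotransgenic mice, and all 8 were lower with the transgene on over the 3 sets. In experiment 2 the granule cell sum was 17340 to 18300 in bitransgenic and 15630 to 21710 in monotransgenic mice, and in set 3 12690 to 14530 in bitransgenic and 13180 to 19300 in monotransgenic mice. Their part in the *Mcm6* values was not tested.

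**Figure D3:**
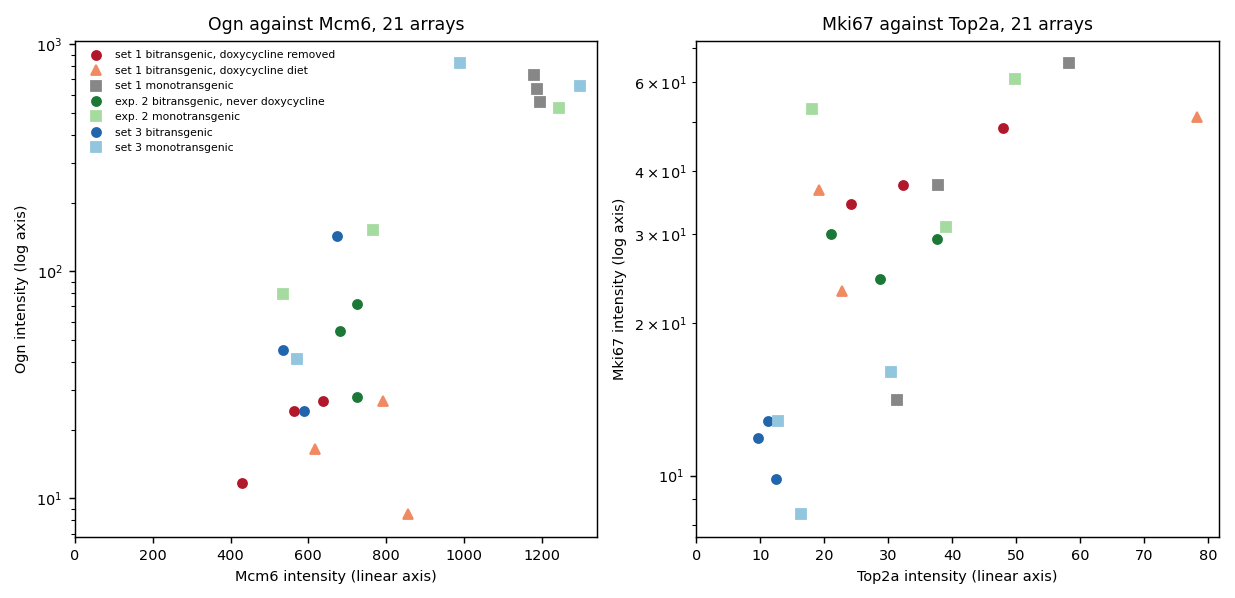
Left, Ogn intensity (log axis) against Mcm6 intensity (linear axis) on the 21 arrays, coloured by group; right, Mki67 intensity (log axis) against Top2a intensity (linear axis). On the left 6 monotransgenic arrays stand together at Mcm6 of 991 or more, apart from the other 15; on the right the 6 arrays of set 3 lie at Mki67 of 16.0 or less, where of the other 15 arrays only set 1 monotransgenic array 1, at 14.1, is found.

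The other subunits of the helicase stood closer to 0. Over the 3 sets the log2 differences were 0.10 ± 0.20 for *Mcm2*, 0.08 ± 0.12 for *Mcm3*, 0.06 ± 0.14 for *Mcm4* and 0.19 ± 0.12 for *Mcm5*, each on the higher side. *Mcm7* was the one other subunit on the lower side, at -0.25 ± 0.10 (adjusted p = 0.349, exact permutation p = 0.019). In experiment 2 *Mcm7* read 315, 158 and 303 in bitransgenic mice, against 319.8, 455 and 393 in monotransgenic mice, all 3 below all 3, a log2 difference of -0.56 ± 0.18 (adjusted p = 0.201). It was 383, 400.1 and 391 after removal, 409, 347 and 487 on the diet and 448, 394 and 468 in set 1 monotransgenic mice, and 351, 457 and 425 in set 3 bitransgenic, against 419, 403 and 449 in set 3 monotransgenic mice. The groups overlapped in those 2 sets, and the 4 probe sets kept for *Mcm7* ran from -0.56 to -0.19 in experiment 2 and from -0.25 to -0.005 over the 3 sets. The lowest value, 158, is bitransgenic array 2 of experiment 2, which also had the highest actin 3'/5' ratio of the series (6.24 in log2), and without it the difference was -0.32 (adjusted p = 0.474). The 6 oligodendrocyte precursor markers summed to 259 to 363 in bitransgenic and 417 to 722 in monotransgenic mice of experiment 2, all 6 lower in bitransgenic mice, and their part in the *Mcm7* values was not tested.

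*Pcna* codes for the sliding clamp of DNA polymerases and is also used in DNA repair outside the cell cycle. Its level hardly varied: 1341, 1517 and 1318 after removal, 1284, 1369 and 1231 on the diet and 1415, 1409 and 1231 in set 1 monotransgenic mice. In experiment 2 it was 1053, 1466 and 1486 in bitransgenic and 1345, 877 and 1092 in monotransgenic mice, and in set 3 1100, 1099 and 917 in bitransgenic and 967, 1055 and 1157 in monotransgenic mice. Differences of *Pcna* lay between -0.06 and 0.18 in all 6 comparisons. *Rrm2*, a subunit of ribonucleotide reductase, ranged from 10.7 to 67.5 and *Tyms*, thymidylate synthase, from 1.52 to 18.6. *Mcm2* spanned 36.5 to 165, *Mcm3* 6.91 to 31.5, *Mcm4* 223 to 706 and *Mcm5* 29.6 to 64.4. *Mcm5* was the other gene of the list whose set 3 groups did not overlap, higher in bitransgenic mice by 0.27 ± 0.21 (adjusted p = 0.9998).

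*Ccnd2* had the lowest p of the list in both comparisons with the doxycycline diet, and passed in neither. It codes for cyclin D2, the D-type cyclin that adult hippocampal progenitors depend on. Its intensity was 750.2, 636 and 448 after removal, against 1129, 1028 and 1017 on the diet, and 607, 675 and 639 in set 1 monotransgenic mice. The 3 diet arrays exceeded all 18 other arrays of the series, and removal and monotransgenic arrays overlapped. The log2 difference was -0.82 ± 0.23 for removal against the diet (adjusted p = 0.348), 0.71 ± 0.23 for the diet against monotransgenic mice (adjusted p = 0.855) and -0.11 ± 0.23 for removal against monotransgenic mice (adjusted p = 0.964). The exact permutation p was 0.1 for both comparisons with the diet, the smallest that 3 arrays against 3 allow. All 6 probe sets kept for *Ccnd2* gave the diet the higher value, from -0.91 to -0.61 for removal against the diet and from 0.47 to 0.79 for the diet against monotransgenic mice. With the arrays of set 1 alone in the fit, the difference between removal and the diet passed (adjusted p = 0.0233), as it did for 85 genes in all. The 6 markers of other forebrain regions had a sum of 1117 to 1565 after removal, 707 to 761 on the diet and 1208 to 1312 in set 1 monotransgenic mice. Of the 6, 5 were higher after removal than on the diet. Against monotransgenic mice, 3 were higher and 3 lower on the diet, with a median of -0.04. *Penk* was lower than in monotransgenic mice both on the diet (-2.76) and after removal (-2.40). None of the 6 passed in these comparisons, and their part in the *Ccnd2* values was not tested.

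Outside set 1, *Ccnd2* read 573, 288 and 441 in bitransgenic mice of experiment 2, against 615, 401 and 769 in monotransgenic mice, and 414, 452 and 480.1 in bitransgenic mice of set 3, against 493, 389 and 544 in monotransgenic mice. Both pairs of groups overlapped. *Ccnd1*, cyclin D1, ranged from 37.7 to 99.6 over all arrays and differed by -0.21 ± 0.24 between removal and the diet. The other *Ccnd1* probe sets kept were on the opposite side there, at 0.12 and 0.06. *Cdkn1b*, the inhibitor p27 that holds cells out of the cycle, ranged from 166 to 319.5 and differed by -0.05 ± 0.21. Neither reached an unadjusted p of 0.05 there.

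**Figure D4:**
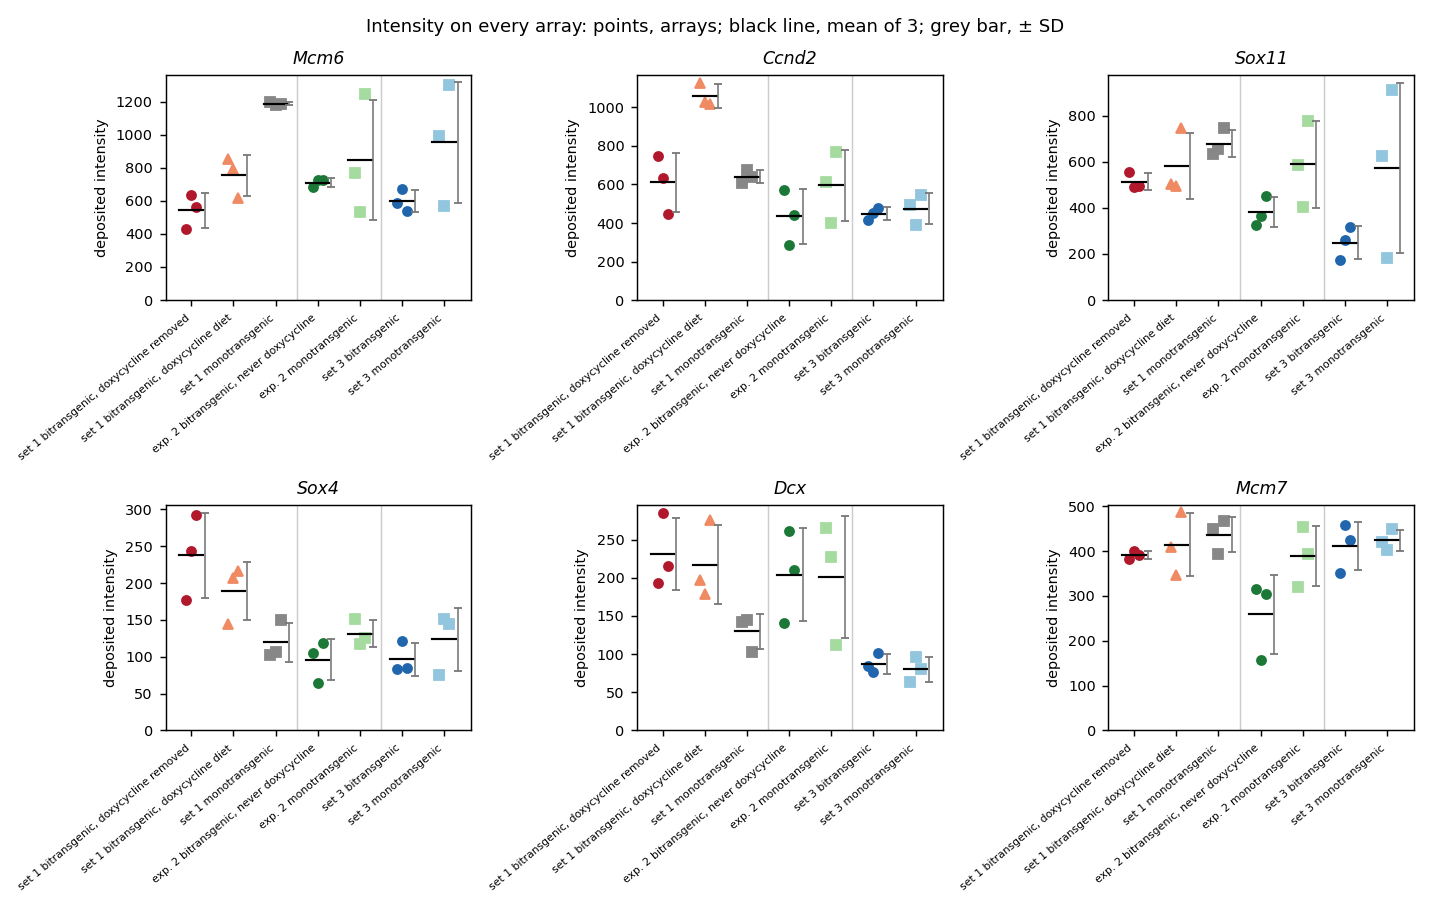
Deposited intensity (vertical axis, linear from 0) on each of the 21 arrays for 6 genes, with the 7 groups along the horizontal axis in their sets; black lines are means of 3 and grey bars ± SD. Mcm6 shows 3 tight set 1 monotransgenic points and wide monotransgenic spreads in experiment 2 and set 3, Ccnd2 is highest on the diet, and Dcx is lowest in set 3.

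Among immature neuron genes, *Sox4* and *Dcx* were higher in both bitransgenic groups of set 1 than in monotransgenic mice. *Sox4* and *Sox11* code for SoxC transcription factors that start the neuronal program in new neurons, and *Dcx* codes for doublecortin, a microtubule-binding protein and the standard marker of immature neurons. *Sox4* read 178, 243 and 292 in the removal group and 144, 207 and 216 in the diet group, against 103, 106 and 150 in monotransgenic mice, so that the removal arrays lay above all monotransgenic arrays and the diet arrays overlapped them. Its log2 difference was 0.92 ± 0.25 for removal against monotransgenic mice (adjusted p = 0.2002, exact permutation p = 0.1) and 0.59 ± 0.25 for the diet against monotransgenic mice (adjusted p = 0.9997). These are values of the brightest probe set. Of the 4 kept for *Sox4*, 3 were on the higher side for removal against monotransgenic mice, and the dimmest gave -0.01.

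In the other sets the brightest *Sox4* probe set was on the opposite side, and in set 3 another 2 of the 4 kept were on the higher side, at 0.17 and 0.14. It read 105, 64.9 and 118 in experiment 2 bitransgenic mice, against 151, 118 and 125 in monotransgenic mice, and 82.6, 121 and 84.6 in set 3 bitransgenic mice, against 74.5, 151 and 145 in monotransgenic mice. The within-set difference was -1.21 ± 0.35 from experiment 2 less set 1 (adjusted p = 0.414) and -1.17 ± 0.35 from set 3 less set 1 (adjusted p = 0.9998), so neither difference between sets passed.

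*Dcx* read 194, 285 and 216 in the removal group and 197, 179 and 276 in the diet group, against 142, 144 and 103 in set 1 monotransgenic mice. Every bitransgenic array of set 1 lay above every monotransgenic array. The log2 differences were 0.79 ± 0.28 for removal (adjusted p = 0.405) and 0.66 ± 0.28 for the diet (adjusted p = 0.9997), each against monotransgenic mice. The other *Dcx* probe set kept gave 0.29 and 0.03. In experiment 2 *Dcx* was 141, 262 and 209.5 in bitransgenic and 265, 227 and 112 in monotransgenic mice, and in set 3 it was 84.0, 76.0 and 102 in bitransgenic and 63.2, 96.2 and 80.1 in monotransgenic mice, with groups that overlapped in both. With the arrays of set 1 alone in the fit, *Sox4*, *Dcx* and *Mcm6* all passed for removal against monotransgenic mice, among 330 genes that passed there.

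The brightest *Sox11* probe set was on the lower side with the transgene on in each set. It read 557, 489 and 494 in the removal group and 502, 495 and 748 in the diet group, against 635, 656 and 746 in set 1 monotransgenic mice, and the removal arrays lay below all monotransgenic arrays. In experiment 2 it was 327, 364 and 454 in bitransgenic mice, against 589, 403 and 779 in monotransgenic mice, and in set 3 172, 259.7 and 317 in bitransgenic and 626, 183 and 912 in monotransgenic mice. The low value of 183 is set 3 monotransgenic array 2. Of the 6 arrays of highest *Mcm6*, *Ogn* and *C1ql2*, 5 were also among the 6 highest for *Sox11*, and the part of those markers in the *Sox11* values was not tested. The log2 difference was -0.40 ± 0.38 in set 1, -0.58 ± 0.38 in experiment 2 and -0.96 ± 0.38 in set 3, with a mean of -0.65 ± 0.22 over the 3 sets (adjusted p = 0.217, exact permutation p = 0.0213). Without set 3 monotransgenic array 2 it was -1.62 in set 3 (adjusted p = 0.0170) and -0.87 over the 3 sets (adjusted p = 0.00247), and *Sox11* passed in both. Without experiment 2 monotransgenic array 3 it was -0.57 over the 3 sets (adjusted p = 0.387). Probe sets of *Sox11* disagreed in set 1 and in experiment 2. The second brightest averaged 450.1 after removal and 345 in set 1 monotransgenic mice, opposite to the brightest. It gave 0.02 in experiment 2 and -0.09 over the 3 sets. Of the 6 kept, 1 gave 0.21 in experiment 2 and 0.14 over the 3 sets. The rest, with the brightest, were on the lower side in experiment 2, from -0.58 to -0.02.

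*Tubb3* and *Dpysl3* differed by less than 0.4 log2 units in each comparison on their brightest probe sets. The dimmer *Dpysl3* probe set kept gave 0.52 for the diet against monotransgenic mice and -0.51 in experiment 2. The brightest gave -0.12 and -0.11 there. *Tubb3*, a neuronal tubulin, ranged from 26.8 to 106 and *Dpysl3*, a collapsin response mediator protein of growing neurites, from 21.2 to 125. *Tubb3* on the diet lay below all set 1 monotransgenic arrays, by -0.30 ± 0.22 (adjusted p = 0.9997). *Igfbpl1*, a marker of newborn neurons in mouse, was under the filter at 1.43 to 27.1.

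On the brightest probe sets, stem cell and Notch genes differed between groups by less than 0.7 log2 units. *Hopx*, expressed in quiescent dentate stem cells and also in astrocytes, read 728, 735 and 909 after removal, against 1009, 916 and 1130 on the diet, and 1128, 817 and 915 in set 1 monotransgenic mice. All removal arrays lay below all diet arrays, by -0.38 ± 0.17 on the log2 scale (adjusted p = 0.941, exact permutation p = 0.1). The other *Hopx* probe set kept gave -0.11 there and -0.07 in experiment 2. In experiment 2 *Hopx* was 1160, 808 and 841 in bitransgenic mice, against 1316, 1338 and 1015 in monotransgenic mice, with a difference of -0.44 ± 0.17 (adjusted p = 0.2595). In set 3 it was 977, 719 and 809 in bitransgenic and 792, 792 and 703 in monotransgenic mice, and the groups overlapped. The 5 astrocyte markers summed to 4432 to 4509 after removal, 5057 to 5781 on the diet and 4837 to 5488 in set 1 monotransgenic mice, all 5 lower after removal than on the diet, and their part in the *Hopx* values was not tested.

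*Nes* codes for nestin, an intermediate filament of neural stem cells. It read 14.2, 14.0 and 21.1 in the removal group and 29.3, 25.0 and 13.9 in the diet group, against 43.1, 20.5 and 37.9 in set 1 monotransgenic mice, a difference of -0.58 ± 0.21 for removal against monotransgenic mice with overlap at 1 array (adjusted p = 0.390, exact permutation p = 0.2). *Nes* in the other sets was 44.9, 23.6 and 34.5 in experiment 2 bitransgenic and 27.4, 43.8 and 41.3 in monotransgenic mice, and 21.6, 21.9 and 20.6 in set 3 bitransgenic and 20.6, 20.7 and 22.0 in monotransgenic mice.

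*Dll1*, a Notch ligand that progenitors show to their neighbours, had a positive log2 difference after normalization in all 3 sets, although its deposited intensities in experiment 2 averaged slightly lower in bitransgenic mice. It read 49.8, 69.5 and 60.2 in the removal group and 70.2, 91.7 and 56.8 in the diet group, against 48.4, 47.8 and 48.2 in set 1 monotransgenic mice, with no overlap of either with the monotransgenic arrays. Experiment 2 gave 48.2, 64.8 and 65.6 in bitransgenic and 61.6, 62.2 and 60.5 in monotransgenic mice, and set 3 49.2, 47.6 and 47.6 in bitransgenic and 25.5, 38.2 and 50.3 in monotransgenic mice. The difference was 0.25 ± 0.11 over the 3 sets (adjusted p = 0.359) and 0.45 ± 0.19 for the diet against monotransgenic mice (adjusted p = 0.9997).

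*Hes1* and *Hes5* code for the repressors that Notch switches on, *Notch1* for the receptor and *Sox2* for a transcription factor of stem cells and astrocytes. *Hes5* ranged from 23.4 to 149, and its difference over the 3 sets was -0.43 ± 0.22 (adjusted p = 0.454). The other *Hes5* probe set kept gave -0.09 over the 3 sets and 0.15 in experiment 2, where the brightest gave -0.67. The brightest, like that of *Mcm6*, is of a kind whose probes may also bind other transcripts. *Hes1* ranged from 9.24 to 35.1, *Notch1* from 36.9 to 105 and *Sox2* from 146 to 363. The other *Notch1* probe set kept gave -0.76 in experiment 2 and 0.73 in set 3, where the brightest gave -0.07 and -0.47. The signs of these *Notch1* probe sets were also opposite in both comparisons with the diet. After removal the *Sox2* arrays lay below all set 1 monotransgenic arrays, by -0.24 ± 0.23 (adjusted p = 0.907).

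*Neurod1*, a transcription factor of late progenitors that mature granule cells keep, read 885, 1338 and 1124 after removal, 1252, 1266 and 1335 on the diet and 1254, 1231 and 1410 in set 1 monotransgenic mice. In experiment 2 it was 1828, 787 and 1627 in bitransgenic and 1683, 1157 and 1188 in monotransgenic mice, and in set 3 1008, 976 and 955 in bitransgenic and 1121, 909.9 and 1062 in monotransgenic mice. Groups overlapped in every comparison, and the largest difference was -0.26 ± 0.22, for removal against monotransgenic mice.

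*Neurog2* and *Eomes* (Tbr2) act earlier, in the dividing intermediate progenitors. *Neurog2* read 1.27, 1.55 and 1.56 in set 3 bitransgenic mice, against 5.30, 7.61 and 13.3 in monotransgenic mice, all 3 below all 3, by -0.53 ± 0.31 (adjusted p = 0.9998, exact permutation p = 0.1). These values lie under the filter's limit of 13.8, near the low end of the array. Elsewhere *Neurog2* was 14.0, 31.8 and 17.2 after removal, 20.3, 14.8 and 35.8 on the diet and 30.9, 6.82 and 34.6 in set 1 monotransgenic mice, and 2.01, 19.8 and 12.1 in experiment 2 bitransgenic and 33.3, 18.0 and 19.3 in monotransgenic mice. *Eomes* ranged from 0.596 to 44.6 and differed by -0.03 ± 0.19 over the 3 sets.

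No mitotic gene reached an unadjusted p of 0.05 in any of the 6 comparisons. *Mki67*, which codes for the Ki-67 protein of dividing cells, read 37.5, 34.4 and 48.7 after removal, 36.7, 23.2 and 51.1 on the diet and 14.1, 37.6 and 65.3 in set 1 monotransgenic mice. In experiment 2 it was 30.1, 29.4 and 24.4 in bitransgenic and 60.6, 31.0 and 53.1 in monotransgenic mice, and in set 3 12.8, 11.9 and 9.84 in bitransgenic and 12.8, 8.40 and 16.0 in monotransgenic mice. The difference over the 3 sets was -0.05 ± 0.17 (adjusted p = 0.935).

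*Top2a* codes for topoisomerase II alpha, which untangles replicated chromosomes. It read 32.2, 24.1 and 47.9 after removal, 19.2, 22.8 and 78.2 on the diet and 31.3, 37.7 and 58.2 in set 1 monotransgenic mice, and differed by -0.15 ± 0.19 over the 3 sets (adjusted p = 0.796). *Ccna2*, cyclin A2 of S and G2 phase, read 35.3, 42.3 and 71.7 after removal, 58.9, 34.3 and 89.0 on the diet and 49.3, 32.3 and 82.3 in set 1 monotransgenic mice. In experiment 2 *Ccna2* was 39.4, 36.9 and 55.5 in bitransgenic and 56.4, 57.6 and 52.4 in monotransgenic mice, and in set 3 29.0, 27.3 and 34.9 in bitransgenic and 43.1, 33.4 and 34.8 in monotransgenic mice, and groups overlapped in each comparison. *Cdc20*, an activator of the anaphase-promoting complex, ranged from 8.22 to 40.4, the mitotic kinase gene *Aurka* from 3.16 to 43.7 and *Prc1*, which bundles the midzone microtubules, from 6.75 to 33.1.

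The S to M phase genes under the filter had low means over the arrays. *Birc5* still reached the filter's limit on 9 of the 21 arrays, *Cdk1* on 5, *Bub1* on 2 and *Aurkb* on 0. *Cdk1*, the kinase that drives entry into mitosis, ranged from 0.446 to 20.3, *Aurkb* from 0.439 to 12.1, *Birc5* (survivin) from 0.692 to 28.1 and the checkpoint kinase gene *Bub1* from 3.08 to 15.3. They were not tested, and no difference is read from them.

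Within groups, *Mki67* and *Top2a* gave the closest relation of the 6 pairs of genes examined, and it did not pass adjustment over all arrays. Deviations from the group means correlated over the 21 arrays with r = 0.589 (permutation p = 0.0355, 0.213 adjusted over 6 pairs) and rho = 0.568 (permutation p = 0.0422, 0.211 adjusted), and r was 0.578 without the 2 arrays of most extreme *Mki67* deviation. Without experiment 2 it was r = 0.708 (permutation p = 0.00885, adjusted 0.0531) and rho = 0.771 (permutation p = 0.00602, adjusted 0.0361) over 15 arrays. The array with the highest *Top2a*, diet array 3 at 78.2, also had the highest *Ccna2*, at 89.0, *Rrm2*, at 67.5, and *Dpysl3*, at 125. The other 5 pairs examined had adjusted permutation p-values of 0.303 or more for r. They were *Ccnd1* with *Ccnd2* (r = 0.403), *Hes1* with *Hes5* (0.092), *Dcx* with *Sox11* (-0.164), *Dcx* with *Igfbpl1* (-0.001) and *Sox4* with *Sox11* (-0.05).

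Many genes of the list read lower in set 3 than in the other 2 sets pooled. On the normalized log2 scale, 28 of the 32 genes had a lower median over the 6 arrays of set 3 than over the other 15 arrays, against 6404 of all 12499 genes. *Dcx* ran from 63.2 to 102 in set 3 and from 103 to 285 elsewhere, and *Dpysl3* from 21.2 to 46.1 in set 3 and from 49.6 to 125 elsewhere. These were the 2 genes of the list whose 6 set 3 arrays all lay under the other 15, as 0.128% of all genes did, and none lay above them all, as 0.104% did. *Mki67* had a median of 12.3 in set 3 and 36.7 elsewhere, *Top2a* 12.6 and 32.2, *Rrm2* 16.1 and 31.1, *Eomes* 5.75 and 20.8, and *Neurog2* 3.43 and 19.3. *Tubb3*, *Ccnd1*, *Mcm5* and *Mcm7* were the 4 whose median was not lower in set 3. Set 3 differs from experiment 2 in sex and from both other sets in what the labels say of treatment. Its actin 3'/5' ratios were 4.11 to 4.56 in log2, against 4.55 to 5.04 in set 1 and 4.79 to 6.24 in experiment 2. The *Gapdh* 3'/5' ratios were 4.42 to 4.70 in set 3, 3.89 to 4.32 in set 1 and 4.04 to 4.65 in experiment 2. What goes with the levels of set 3 cannot be told apart.

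Further genes of the same pathways, listed beside the 39, gave no call either. Of 9 tested stem cell and glial progenitor genes 4 were higher and 5 lower over the 3 sets, of 12 Notch pathway genes 8 and 4, of 15 immature and early postmitotic neuron genes 10 and 5, and of 31 cell cycle genes 23 and 8 (medians -0.01, 0.08, 0.05 and 0.08). None of the 4 lists had a gene that passed in any of the 6 comparisons. *Jag1*, a Notch ligand, came nearest, at -0.60 ± 0.14 over the 3 sets (adjusted p = 0.0679), and *Rbpj* was at 0.34 ± 0.10 (adjusted p = 0.153). *Hes6*, which counters *Hes1*, was at 0.45 ± 0.17 in experiment 2 (adjusted p = 0.258) and at -0.40 for removal against monotransgenic mice (adjusted p = 0.543), and the difference between these sets was 0.85 (adjusted p = 0.414).

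In the cell cycle list, *Ccne2* (cyclin E2) stood 0.93 ± 0.26 from monotransgenic mice in experiment 2 (adjusted p = 0.139) and *Cdk2*, its partner kinase, 0.60 ± 0.21 (adjusted p = 0.225). *E2f1* was at 0.47 ± 0.16 over the 3 sets (adjusted p = 0.2075). Experiment 2 had 23 of these 31 genes higher in bitransgenic mice, with a median of 0.26. Among the 39, 5 of 8 tested replication genes were higher there, with a median of 0.18. Of the S to M phase genes, 1 of 6 was higher, with a median of -0.11. Among immature neuron genes, the tubulin gene *Tubb2b* was at 0.56 ± 0.16 and *Calb2* (calretinin) at 1.17 ± 0.38 for removal against the diet (adjusted p = 0.444 and 0.5904), and *Marcksl1* at -0.70 ± 0.21 over the 3 sets (adjusted p = 0.153). The stem cell list was led by *Id3*, at -0.77 ± 0.25 for removal against the diet (adjusted p = 0.5904), *Lpar1*, at 0.33 ± 0.16 in experiment 2 (adjusted p = 0.353), and the astroglial glutamate transporter gene *Slc1a3*, at -0.39 ± 0.24 for removal against monotransgenic mice (adjusted p = 0.795).

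Groups of 3 that do not overlap were counted as a plain description. Between removal and the diet 2 of 32 genes did not overlap (16.2% of all genes), *Hopx* and *Ccnd2*. For removal against monotransgenic mice it was 7 (22.2%), with *Dll1*, *Dcx*, *Sox4* and *Mcm3* higher and *Sox2*, *Sox11* and *Mcm6* lower, and for the diet against monotransgenic mice 5 (14.9%), with *Dll1*, *Dcx* and *Ccnd2* higher and *Tubb3* and *Mcm6* lower. Experiment 2 had 1 (8.69%), *Mcm7*, and set 3 had 2 (13.5%), *Neurog2* and *Mcm5*. As shares of 32 these counts are close to or under those of all genes.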

How the data were processed

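RNA of 21 mouse dentate gyrus samples was measured on Affymetrix arrays of 45101 probe sets. The authors deposited linear intensity values, and on each array the mean without the lowest and highest 2% was 150, as tested on the values. No label or header used here names the tool that made them. Of the probe sets, 34945 carried 1 gene symbol, 932 several, 9160 none, and 64 were controls; names were updated by Entrez ID for 34741. From the deposited intensities, log2(intensity + 16) was taken and quantile normalized, the upper 60% of probe sets by mean was kept (27022, limit 13.8 in intensity), and the brightest probe set stood for each gene. limma 3.58.1 in R 4.3.3 fitted 1 mean per group over all 21 arrays (lmFit, eBayes with trend, 14 residual degrees of freedom), two-sided, with Benjamini-Hochberg adjustment over 12499 genes. The fit was tested on simulated data. The number of arrays limits the precision. Exact permutation tests used R, and pair correlations with their permutations used Python 3.11.15 with scipy 1.17.1. Sequences are from RefSeq, build GRCm38.p6.

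Values of every array were printed for genes that passed, for the 3 of lowest p in each comparison and for the brightest of each role. Those of *Mki67*, *Top2a* and *Dcx*, and the *C1ql2* and *Ogn* ranges were chosen after their values were seen. Members and lists were chosen with earlier results of these data known. No 2 arrays were identical (correlations 0.923 to 0.991). Alternatives covered the pseudocount, filter, scaling, probe set, array weights, variance trend, RNA quality, the title prefix within set 3 and each array left out.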

Additional observations from a re-analysis of the deposited data

How the results depend on the processing

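The count of genes of the list that passed was 0 in each comparison, and 184 of 199 recomputed counts were also 0. As counts of the list, with the share of all genes that passed, the arrays of the set alone gave 1 for removal against the diet (*Ccnd2*, 0.68% of all genes) and 3 for removal against monotransgenic mice (*Dcx*, *Mcm6*, *Sox4*, 2.64%). Array weights gave 1 for removal against the diet (*Ccnd2*, 0.544%), 2 for removal against monotransgenic mice (*Mcm6*, *Sox4*, 2.03%), 1 for the diet against monotransgenic mice (*Ccnd2*, 0.328%) and 3 over the 3 sets (*Dcx*, *Mcm6*, *Sox11*, 11%, a share like that of the list). Leaving out experiment 2 gave 1 for removal against the diet (*Ccnd2*, adjusted p = 0.0450, 0.192%) and 1 for removal against monotransgenic mice (*Mcm6*, adjusted p = 0.0309, 0.656%), and a threshold of 0.1 gave 1 over the 3 sets (*Mcm6*, 1.02%). In settings chosen after seeing the data it was 1 over the 3 sets (*Mcm6*) without the 2 arrays of highest actin 3'/5' ratio (adjusted p = 0.0386, 3.32%) and in sets 1 and 3 only (-0.87, adjusted p = 0.0187, 1.5%). Leaving out each array gave 0 to 2 over the 3 sets, 0 to 1 in set 3 and 0 elsewhere. With another probe set, *Sox4* was -0.0102 for removal against monotransgenic mice and *Sox11* was 0.14 over the 3 sets. The cause was not tested. No paired analysis was possible because the labels give no replicate numbers shared by groups in set 1 and experiment 2. In set 3 some titles share a prefix across the groups, whose meaning the labels do not state. With an indicator for each shared prefix, 0 genes of the list passed in set 3 (*Sox11* adjusted p = 0.956). That fit left the arrays of unshared prefixes together in a common level. Genes near an intensity of 13.8 are limited by signal over background.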
